A study of Rattus norvegicus with 90 samples.

Results

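The low dose of human mesenchymal stem cells (HuMSC) given through the nose was examined in microglia of newborn rats after systemic inflammation. The libraries were picked by their titles: the 3 that received 20 M cells per kg intranasally (M stands for 10 to the power of 6) and the 3 sham-treated libraries of the same age, route and insult, 6 of 90 libraries in all. All genes of the count table were read in them.

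The HuMSC20 libraries came from male Wistar Han pups that received interleukin-1 beta (IL-1beta, 20 µg/kg, by intraperitoneal injection) from postnatal day (P) 1 to P5 and, at P5, 20 M HuMSC per kg by the intranasal route. The injured libraries came from pups with the same IL-1beta injections and an intranasal sham of PBS at P5. The control libraries of the same run had PBS in place of IL-1beta and the same sham, and HuMSC50 and HuMSC125 had IL-1beta with 50 or 125 M cells per kg. Each group has 3 libraries. Brains without olfactory bulbs and cerebellum were taken at P7, 48 h after the cells, and CD11b/c+ cells were isolated with magnetic beads. The labels do not say whether a library is 1 pup or a pool, so p-values measure the spread between these libraries, which may be technical. The 6 libraries held 16.4 to 20.8 M counted reads.

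Microglia are the resident macrophages of the brain. In the first postnatal week they divide, prune synapses and support the cells that will form myelin. IL-1beta acts through a receptor that switches on NF-kB and raises cytokines and chemokines, and early systemic inflammation of this kind is used as a model of the white matter injury of preterm birth. Mesenchymal stem cells are studied in it because they release factors that act on immune cells.

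The CD11b/c+ label held against the microglial markers. In the 6 libraries Csf1r, the receptor that microglia need to survive, lay between 5694 and 7048 CPM (counts per M counts of the library, scaled by the trimmed mean of M-values, TMM), and P2ry12, the purinergic receptor of resting microglia, between 1200 and 1550 CPM. The T cell receptor gene Cd3e did not pass 0.106 CPM in any of the 6, and the myelin gene Mog did not pass 0.0502 CPM. Other cells were not absent: the mast cell protease Cpa3 lay between 46.1 and 176 CPM, the vascular gene Cldn5 between 82.0 and 129 CPM and the neutrophil gene S100a8 between 18.2 and 78.8 CPM.

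HuMSC20 microglia differed from injured microglia in few genes. With edgeR's quasi-likelihood test and Benjamini-Hochberg adjustment, 15 of 13872 genes passed the threshold of 0.05, which is 0.108% of the genes tested. Of these 15 genes, 9 were higher in HuMSC20 (0.0649%) and 6 were lower (0.0433%), and the median log2 difference over all genes tested was 0.00. The genes that rose included Enpp6, Adarb1, Fam72a, Egr2 and Kcnk13, and those that fell included Nuak2, Pde4b, Ephb3, Id2 and Pim1. At an unadjusted p under 0.05 there were 1038 genes (7.48%). The count depended on single libraries. Leaving out injured replicate 1 or 3 gave 0 calls (806 and 676 genes unadjusted), and leaving out injured replicate 2 gave 14. Without HuMSC20 replicate 1 there were 4 calls (2 of them among the 15), without replicate 2 there was 1 (among the 15) and without replicate 3 there were 2 (1 among the 15). Of the 14 calls without injured replicate 2, 9 were among the 15. DESeq2 called 91 genes, among them all 15, and a fit of the 6 libraries alone called 41, among them 13 of the 15.

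**Figure D1:**
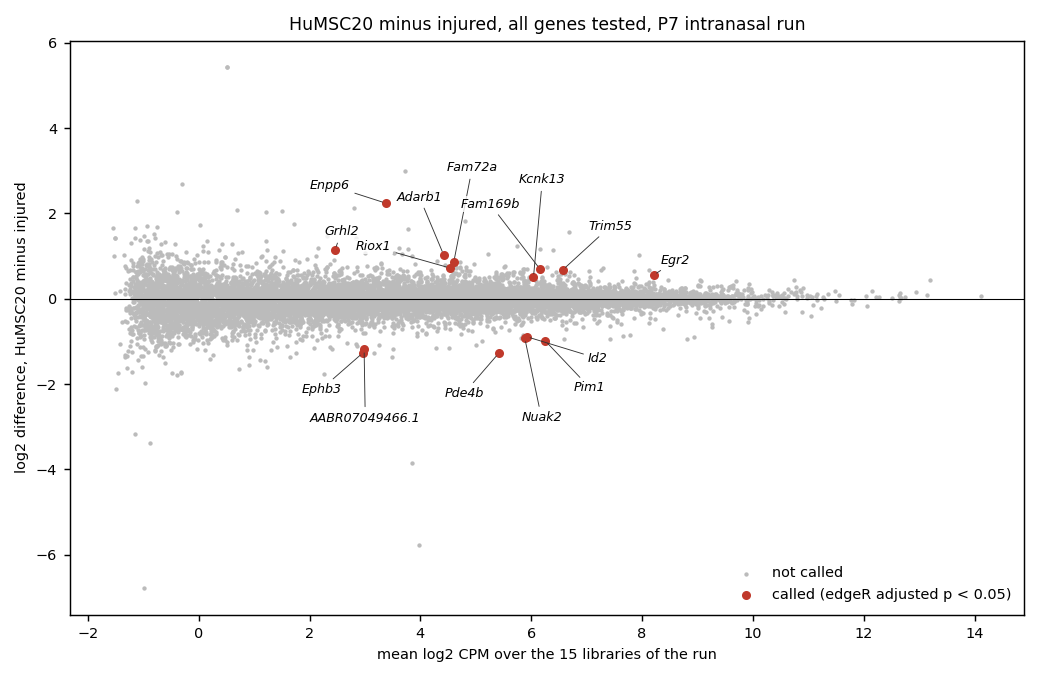
Log2 difference, HuMSC20 minus injured (vertical axis), against the mean log2 CPM over the 15 libraries of the run (horizontal axis), 1 point per gene tested. The 15 called genes are in red with their names, 9 above and 6 below 0, and span the middle range of expression.

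Enpp6 showed the smallest p of all genes. It encodes a choline-specific phosphodiesterase and is best known as a marker of oligodendrocytes that have just begun to form. Enpp6 stood at 12.7, 12.8 and 14.7 CPM in the HuMSC20 libraries, against 2.31, 3.09 and 3.12 CPM in the injured ones. The groups were far apart, with every HuMSC20 library at about the same level. The fold from the edgeR fit was 4.72, the log2 difference was 2.24 ± 0.28 (SE), and the adjusted p of edgeR's quasi-likelihood test was 0.0107. Control libraries held 23.9, 19.0 and 16.3 CPM of Enpp6, all above the HuMSC20 libraries, although the log2 difference of HuMSC20 minus control, -0.56 ± 0.25, did not pass (edgeR adjusted p = 0.459). Of the other markers of newly formed oligodendrocytes none passed: over the 9 genes of that list the median was -0.17 and 3 were above 0, with Bcas1 at 0.32 ± 0.28, Tcf7l2 at 0.38 ± 0.11 and Fyn at -0.49 ± 0.15 (log2 ± SE). In these bulk samples fewer cells of a type and less RNA per cell cannot be told apart.

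The kinases Nuak2 and Pim1 and the phosphodiesterase Pde4b were among the 6 genes that fell. Nuak2, a kinase related to the energy sensor AMPK, had 48.6, 47.9 and 48.6 CPM in HuMSC20 libraries, against 103, 83.6 and 88.3 CPM in injured ones (log2 difference -0.92 ± 0.13, edgeR adjusted p = 0.0238). Pde4b, the phosphodiesterase that breaks down cyclic AMP in immune cells, had 32.4, 30.2 and 26.9 CPM in HuMSC20 libraries, against 77.2, 54.7 and 84.9 CPM in injured ones (-1.28 ± 0.21, edgeR adjusted p = 0.0365). In both genes all HuMSC20 libraries lay below all injured ones, and the HuMSC20 libraries spanned a narrower range than the injured ones. Pim1, a serine/threonine kinase induced by cytokines through STAT factors, had 75.6, 59.4 and 47.8 CPM in HuMSC20 libraries, against 109, 114 and 138 CPM in injured ones (-0.98 ± 0.17, edgeR adjusted p = 0.0365). Control libraries held 30.02, 39.6 and 41.5 CPM of Nuak2, 24.8, 34.1 and 27.4 CPM of Pde4b, and 35.9, 53.0 and 54.3 CPM of Pim1. For Pde4b the HuMSC20 and control libraries overlapped, and for Nuak2 all 3 HuMSC20 libraries lay above all 3 controls.

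Ephb3 and Id2 are a receptor and a nuclear regulator. Ephb3, a receptor tyrosine kinase for ephrin-B ligands, had 6.03, 5.19 and 6.53 CPM in HuMSC20 libraries, against 10.8, 13.2 and 18.6 CPM in injured ones (log2 difference -1.27 ± 0.20, edgeR adjusted p = 0.0365). Id2, which blocks basic helix-loop-helix factors from binding DNA and is a target of BMP and TGF-beta signals, had 54.3, 45.6 and 52.1 CPM in HuMSC20 libraries, against 103, 75.7 and 103 CPM in injured ones (-0.89 ± 0.14, edgeR adjusted p = 0.0365). Each was the only call in its list, where 0.0433% of all genes tested were called lower and 0.0649% higher. Of 16 genes of the ephrin and Eph receptor list tested only Ephb3 fell and none rose (3 at an unadjusted p under 0.05, median -0.08). Ephb1 stood at 0.57 ± 0.22 (log2 ± SE). In 1 of the 16 all HuMSC20 libraries lay below all injured ones (6.47% of all genes tested) and in 2 above (8.3%). Of 27 genes of TGF-beta signalling tested Id2 alone fell and none rose (1 at an unadjusted p under 0.05, median -0.08). In 3 of the 27 all HuMSC20 libraries lay below all injured ones and in 2 above. The sixth gene that fell has only a provisional name.

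Among the genes that rose, Adarb1 and Egr2 act on RNA and on transcription. Adarb1 encodes ADAR2, which edits adenosine to inosine in RNA. It had 29.7, 27.1 and 21.9 CPM in HuMSC20 libraries, against 11.1, 13.2 and 14.2 CPM in injured ones (log2 difference 1.03 ± 0.17, edgeR adjusted p = 0.0365). Egr2, a zinc finger factor of the immediate early class, had 355, 284 and 283 CPM in HuMSC20 libraries, against 206, 212 and 210 CPM in injured ones (0.56 ± 0.09, edgeR adjusted p = 0.0365). Control libraries held 26.3, 30.7 and 32.4 CPM of Adarb1 and 289, 301 and 343 CPM of Egr2, and in both genes they overlapped with the HuMSC20 libraries.

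Kcnk13 had another pattern across the groups. It encodes THIK-1, the tandem-pore potassium channel that sets the resting potential of microglia. Its level was 78.0, 86.1 and 76.0 CPM in HuMSC20 libraries, against 57.4, 57.6 and 54.6 CPM in injured ones (log2 difference 0.50 ± 0.09, edgeR adjusted p = 0.0365). All 3 HuMSC20 libraries also lay above the controls, at 60.8, 61.6 and 66.1 CPM, a difference of 0.35 ± 0.09 that did not pass (edgeR adjusted p = 0.148).

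Fam72a, whose product in mouse B cells opposes the uracil glycosylase UNG2, had 26.0, 24.8 and 29.8 CPM in HuMSC20 libraries, against 13.6, 17.6 and 12.98 CPM in injured ones (log2 difference 0.87 ± 0.15, edgeR adjusted p = 0.0365). Grhl2, a grainyhead factor of epithelia, was scarce at 7.45, 6.81 and 5.78 CPM in HuMSC20 libraries, against 3.36, 2.86 and 2.81 CPM in injured ones (1.15 ± 0.20, edgeR adjusted p = 0.0416). Neither pair of groups overlapped. The other genes that rose were Riox1, a histidyl hydroxylase of ribosomal proteins (0.72 ± 0.13), Trim55, a ubiquitin ligase known from muscle (0.68 ± 0.12), and Fam169b (0.70 ± 0.12).

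**Figure D2:**
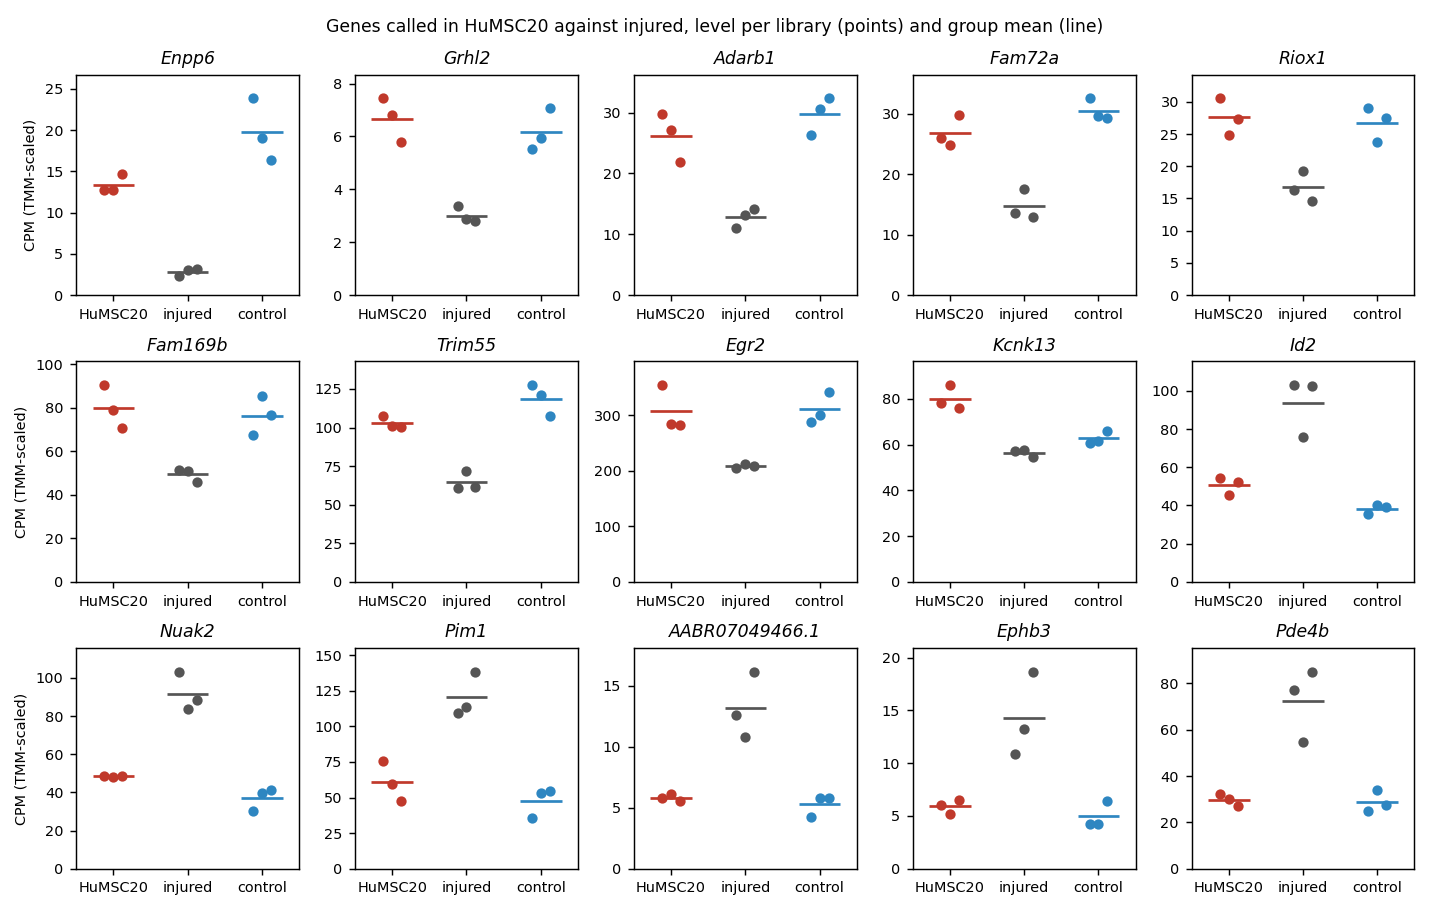
Level of each of the 15 called genes (vertical axes, CPM) in the HuMSC20, injured and control libraries, 1 point per library and a line at the group mean (n = 3). In each panel the HuMSC20 points stand clear of the injured ones; Enpp6 shows the widest gap, and in Kcnk13 the HuMSC20 points stand above the controls too.

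The genes next in order of p did not pass. Ankrd55 had 35.1, 29.4 and 14.1 CPM in HuMSC20 libraries, against 8.12, 7.12 and 7.10 CPM in injured ones (log2 difference 1.81 ± 0.33, edgeR adjusted p = 0.0529). Control libraries held 80.1, 79.1 and 80.2 CPM of Ankrd55, so each HuMSC20 library lay between both other groups. Gpd1, the cytosolic glycerol-3-phosphate dehydrogenase (1.05 ± 0.19, adjusted p = 0.0529), Mlph, an adaptor of myosin Va (1.19 ± 0.23), and S100a4, a calcium-binding protein (0.72 ± 0.14), stood higher. Rgs2, which dampens G protein signals (-0.67 ± 0.13), Tnfsf9, the ligand of the receptor 4-1BB (-0.88 ± 0.17), and Bcl2, which blocks apoptosis (-1.01 ± 0.20), stood lower. Abca8a, a lipid transporter, varied most: 1.72, 0.392 and 0.1004 CPM in HuMSC20 libraries, against 78.6, 4.20 and 31.0 CPM in injured ones (-5.78 ± 1.14, edgeR adjusted p = 0.0815).

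Of the 21 lists of gene function, cell cycle had the highest median, without a single call by edgeR. Of 44 genes tested 0 passed (26 at an unadjusted p under 0.05, and DESeq2 called 3), 43 had a log2 difference above 0, and the median was 0.43 beside 0.00 for all genes. In 24 of the 44 all 3 HuMSC20 libraries lay above all 3 injured ones and in 0 all lay below, where 8.3% of all genes tested lay above and 6.47% below. The median kept between 0.35 and 0.53 over the 11 alternatives that were run. Ccnb1, the cyclin that starts mitosis, had 81.9, 62.9 and 85.0 CPM in HuMSC20 libraries, against 40.2, 59.8 and 41.4 CPM in injured ones (0.70 ± 0.19, adjusted p = 0.265). Prc1, which bundles the midzone microtubules, had 145, 128 and 152 CPM in HuMSC20 libraries, against 83.4, 113 and 75.6 CPM in injured ones (0.65 ± 0.16, adjusted p = 0.187). Mki67, the proliferation marker, had 244, 242 and 260 CPM in HuMSC20 libraries, against 166, 215 and 152 CPM in injured ones (0.48 ± 0.16, adjusted p = 0.401). Injured replicate 2 was the highest injured library in 42 of the 44 genes.

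The members were not alike. The 6 subunits of the MCM helicase, which opens DNA for replication, were singled out after their values were seen and had log2 differences of only 0.01 to 0.13, and Pcna, the sliding clamp, had 0.04 ± 0.11. The genes of mitosis Top2a (0.65 ± 0.18), Kif20a (0.62 ± 0.14), Cdc20 (0.60 ± 0.15), Plk1 (0.59 ± 0.16) and Cdk1 (0.58 ± 0.16) stood higher. Against control the list's median was -0.38, and in 25 of the 44 genes all 3 HuMSC20 libraries lay below all 3 controls (7.66% of all genes), and in 0 above (7.37%). Mki67, for example, had 363, 341 and 280 CPM in the controls.

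Mitotic genes are known to carry a CHR element and CCAAT boxes near their start, bound by the DREAM complex and by NF-Y. Promoter stretches that hold both are shown for 3 mitotic genes of the list and for the called gene Fam72a, as examples picked for holding them. They are the 120 bases before the RefSeq gene start on the gene's strand in build GRCr8, with the CHR letters TTTGAA (or TTCAAA) and the CCAAT letters (or ATTGG) of either strand in capitals. Cdc20 lies at chr5:137255800-137255919 on the minus strand, Top2a at chr10:84473094-84473213 on the minus strand, Prc1 at chr1:143659361-143659480 on the plus strand and Fam72a at chr13:45519820-45519939 on the plus strand.
Cdc20: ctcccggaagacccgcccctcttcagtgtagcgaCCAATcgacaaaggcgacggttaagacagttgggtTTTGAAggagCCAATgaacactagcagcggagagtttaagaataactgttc
Top2a: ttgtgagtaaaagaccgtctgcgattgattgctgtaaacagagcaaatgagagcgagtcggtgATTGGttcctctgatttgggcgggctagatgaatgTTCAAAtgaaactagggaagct
Prc1: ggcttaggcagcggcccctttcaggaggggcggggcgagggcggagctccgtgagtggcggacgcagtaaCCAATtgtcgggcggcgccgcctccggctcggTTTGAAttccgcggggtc
Fam72a: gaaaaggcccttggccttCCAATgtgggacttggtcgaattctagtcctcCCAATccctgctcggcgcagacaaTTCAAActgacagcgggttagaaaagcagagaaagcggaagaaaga

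Of the 44 cell cycle genes 34 had a RefSeq promoter. In the 250 bases before the start, on either strand, TTTGAA was in 10 of the 34 (29.4%), against 16.0% of 27457 promoters, and CCAAT in 25 (73.5%), against 34.3%. Both were in 9 of the 34 (26.5%), against 5.76% of all promoters. Of the 15 called genes 12 had a promoter: TTTGAA was in 1 of them, that of Fam72a, CCAAT in 6 and TGACG in 2. A match of letters is a description and says nothing of binding in these cells.

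Cholesterol synthesis genes leaned the same way by less. Of 25 tested, 0 passed with edgeR (8 unadjusted, DESeq2 1), 24 had a log2 difference above 0 (median 0.20). In 12 all HuMSC20 libraries lay above all injured ones (8.3% of all genes tested) and in 0 below (6.47%). Hmgcs1, which makes HMG-CoA, had 130, 108 and 105 CPM in HuMSC20 libraries, against 86.1, 64.2 and 70.1 CPM in injured ones (0.64 ± 0.15, adjusted p = 0.153).

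Inflammatory genes stood on the lower side, again without calls. Of 29 cytokines and NF-kB targets tested, 0 passed with edgeR (9 unadjusted, DESeq2 2), 24 had a log2 difference below 0 (median -0.24), and in 9 all HuMSC20 libraries lay below all injured ones (6.47% of all genes tested). In 1 they lay above (8.3%), Fcgr3a, an IgG receptor (0.38 ± 0.17). Cxcl2, a chemokine that draws neutrophils, had 354, 312 and 334 CPM in HuMSC20 libraries, against 619, 471 and 824 CPM in injured ones (-0.94 ± 0.22, adjusted p = 0.147). Tnfaip3, which encodes the NF-kB inhibitor A20, had 404, 427 and 326 CPM in HuMSC20 libraries, against 904, 513 and 728 CPM in injured ones (-0.89 ± 0.22, adjusted p = 0.184). Il1b, the cytokine of the insult, had 525, 507 and 553 CPM in HuMSC20 libraries, against 821, 531 and 1025 CPM in injured ones (-0.59 ± 0.28, adjusted p = 0.675). Its groups overlapped through injured replicate 2.

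Of 25 chemokines and receptors tested, 0 passed with edgeR (7 unadjusted, DESeq2 3) and 23 had a log2 difference below 0 (median -0.25), with 7 whose HuMSC20 libraries all lay below the injured ones (6.47% of all genes tested) and 0 above (8.3%). Ccl12, a ligand of Ccr2 in mice, had 9.42, 5.93 and 7.88 CPM in HuMSC20 libraries, against 15.4, 15.3 and 29.1 CPM in injured ones (-1.37 ± 0.28, adjusted p = 0.0931). Cxcl10, the interferon-induced chemokine, had 18.6, 15.5 and 18.1 CPM in HuMSC20 libraries, against 24.1, 28.1 and 32.6 CPM in injured ones (-0.70 ± 0.22). The interferon response list as a whole had a median of -0.06 over 25 genes, with 0 called by edgeR (1 unadjusted, DESeq2 0).

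Immediate early genes, which tissue dissociation is known to induce, went both ways. Of 33 tested, Egr2 rose and none fell with edgeR, where 0.0649% of all genes tested rose and 0.0433% fell. An unadjusted p under 0.05 was found in 13 (7.48% of all genes tested), and DESeq2 called 2. The median was -0.12, and in 8 all HuMSC20 libraries lay below the injured ones (6.47% of all genes tested) and in 4 above (8.3%). Nr4a2, an orphan nuclear receptor, had 141, 158 and 181 CPM in HuMSC20 libraries, against 336, 218 and 324 CPM in injured ones (-0.87 ± 0.22, adjusted p = 0.207). A row that the table names both Hspa1b and Hspa1a, inducible heat shock proteins that are near-identical, had 10.3, 14.5 and 81.2 CPM in HuMSC20 libraries, against 3.11, 2.51 and 7.63 CPM in injured ones (3.00 ± 0.91, adjusted p = 0.336). The part of dissociation in these values was not tested.

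The glucocorticoid response list had the lowest median of the 21 lists, -0.28. Of 15 tested, 0 passed with edgeR (7 unadjusted, DESeq2 1), with 8 below 0 and 7 above. In 4 all HuMSC20 libraries lay below the injured ones (6.47% of all genes tested), among them the metallothionein Mt1 (-0.66 ± 0.30), Per1 of the circadian clock (-0.42 ± 0.17) and Nfkbia, which holds NF-kB in the cytoplasm (-0.37 ± 0.12). In 2 they lay above (8.3%), the kinase Sgk1 (0.32 ± 0.11) and the mTORC1 inhibitor Ddit4 (0.62 ± 0.13).

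Signature genes of resting microglia had a median close to that of all genes. Of 24 homeostatic genes 0 passed with edgeR (4 unadjusted, DESeq2 1), the median was 0.07 and 16 had a log2 difference above 0. In 5 all HuMSC20 libraries lay above the injured ones (8.3% of all genes tested), and in 2 they lay below (6.47%). P2ry12 stood at 0.08 ± 0.11, Tmem119, a microglial membrane protein, at 0.26 ± 0.29 and Cx3cr1, the fractalkine receptor, at -0.01 ± 0.13, all with overlapping groups. Slc2a5, the fructose transporter of microglia, had 397, 433 and 378 CPM in HuMSC20 libraries, against 288, 318 and 279 CPM in injured ones (0.45 ± 0.11, adjusted p = 0.184). Crybb1, a crystallin that marks maturing microglia, had 12.1, 11.8 and 8.44 CPM in HuMSC20 libraries, against 3.71, 7.76 and 6.78 CPM in injured ones (0.83 ± 0.24, adjusted p = 0.293). Repair and regulatory markers had a median of -0.21. Of 18 tested, 0 passed with edgeR (4 unadjusted, DESeq2 0) and 14 had a log2 difference below 0. In 3 all HuMSC20 libraries lay below the injured ones (6.47% of all genes tested), the cytokine Il10 (-0.82 ± 0.34), the scavenger receptor Msr1 (-0.68 ± 0.22) and Socs3, an inhibitor of cytokine signals (-0.61 ± 0.19). In 2 they lay above (8.3%), Cd200r1 (0.28 ± 0.25) and Socs1 (0.98 ± 0.34). Igf1 (-0.21 ± 0.19), Lgals3 (-0.14 ± 0.19) and Mrc1 (-0.29 ± 0.25) overlapped between the groups. Spp1, or osteopontin, ran from 176 to 1850 CPM among the HuMSC20 libraries and from 737 to 2133 CPM among the injured ones. Of 29 lysosome genes tested 0 passed with edgeR (4 unadjusted, DESeq2 0), with a median of 0.05, and in 10 all HuMSC20 libraries lay above the injured ones (8.3% of all genes tested), among them Lamp1 of the lysosomal membrane (0.23 ± 0.07) and the hexosaminidase subunit Hexa (0.28 ± 0.08). In 3 they lay below (6.47%).

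**Figure D3:**
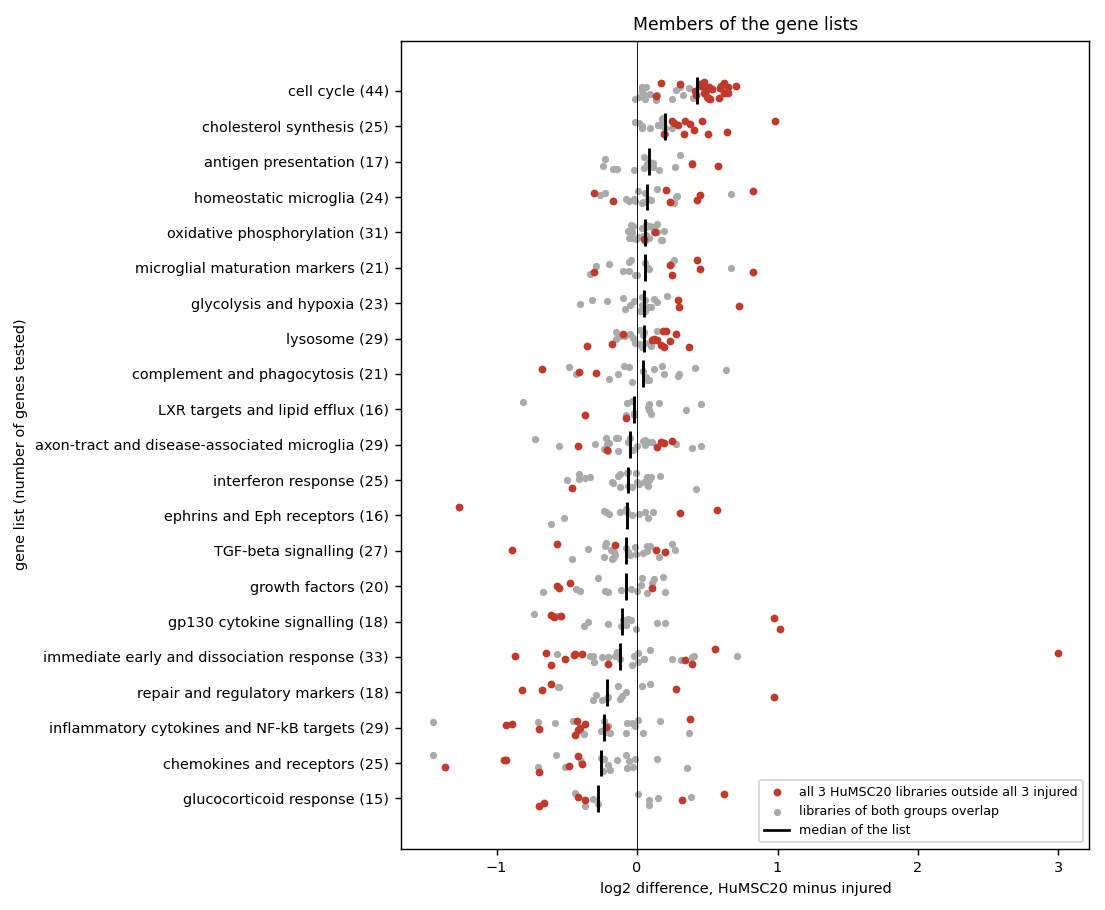
Log2 difference, HuMSC20 minus injured (horizontal axis), of the tested members of 21 gene lists (vertical axis, number tested in brackets), 1 point per gene, red where all 3 HuMSC20 libraries lay outside all 3 injured ones. The cell cycle list has its median at 0.43 and the cholesterol list at 0.20, while the glucocorticoid list lies at -0.28, the chemokine list at -0.25 and the cytokine and NF-kB list at -0.24.

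Markers of mast cells, granule-bearing immune cells found in the meninges, stood higher in HuMSC20 libraries. The summed level of the mast cell list was 490, 329 and 346 CPM in HuMSC20 libraries, against 265, 139 and 158 CPM in injured ones and 46.4, 41.9 and 96.6 CPM in controls. The 3 groups did not overlap. Against injured, 0 of 12 genes tested passed with edgeR (6 unadjusted, DESeq2 0), with a median log2 difference of 1.04 and 10 above 0, and in 6 all HuMSC20 libraries lay above all injured ones (8.3% of all genes tested). In 1, Mcpt4, they lay below (-1.32 ± 0.59), where 6.47% of all genes did. Cpa3, a carboxypeptidase of mast cell granules, had 176, 122 and 139 CPM in HuMSC20 libraries, against 95.6, 46.1 and 51.6 CPM in injured ones (1.17 ± 0.47). Mast cell proteases and tryptases have near-identical copies, so their single values are uncertain. The neutrophil list, with a median of -0.85 over 11 genes, had sums of 352, 289 and 273 CPM in HuMSC20 libraries, against 293, 482 and 411 CPM in injured ones, and no gene with separate groups. All 12 mural cell genes had a log2 difference below 0 (median -0.36) and 11 of 12 endothelial genes (median -0.29). With edgeR 0 passed in either list, and DESeq2 called 1 endothelial gene. An unadjusted p under 0.05 was found in 1 mural and 2 endothelial genes of 12 each (7.48% of all genes tested). In 1 gene of each list all HuMSC20 libraries lay below all injured ones (6.47% of all genes tested) and in 0 above (8.3%). Summed T and NK cell markers were 525 to 549 CPM in HuMSC20 libraries, against 585 to 689 CPM in injured ones, with the T cell receptor genes near 0. Astrocyte markers summed to 431 to 568 CPM in HuMSC20 libraries, against 308 to 407 CPM in injured ones. The gene Slc1a3 held most of that sum, with a mean of 337 CPM in HuMSC20 libraries, against 211 CPM in injured ones. Over the 14 astrocyte genes tested the median log2 difference was -0.0053, with 6 above 0 and 8 below. Erythroid markers summed to 88.6 to 139.8 CPM in HuMSC20 libraries, against 72.6 to 86.8 CPM in injured ones. Dendritic cell markers summed to 71.5 to 74.3 CPM in HuMSC20 libraries, against 70.2 to 71.0 CPM in injured ones. Newly formed oligodendrocyte markers, Enpp6 among them, summed to 204 to 235 CPM in HuMSC20 libraries, against 253 to 262 CPM in injured ones. The T and NK cell, astrocyte, erythroid, dendritic cell and newly formed oligodendrocyte sums did not overlap between both groups. Of the 18 cell lists, all others except mast cells had sums that overlapped, microglia and neutrophils among them. The part of cells other than microglia in the other results was not tested.

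**Figure D4:**
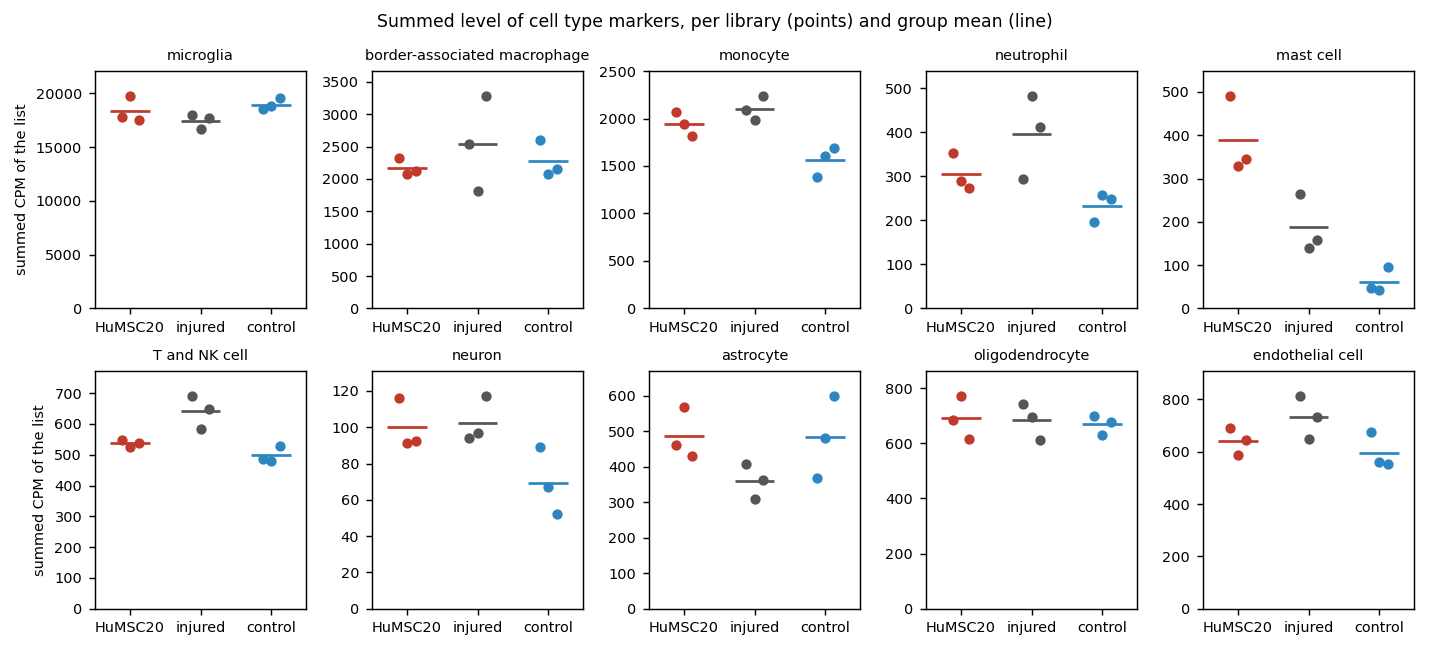
Summed CPM of 10 lists of cell type markers (vertical axes) in the HuMSC20, injured and control libraries, 1 point per library and a line at the group mean (n = 3). Mast cell markers separate all 3 groups, from 329 to 490 CPM in HuMSC20 to 41.9 to 96.6 CPM in controls, and microglial markers dominate every library.

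HuMSC20 was next set beside the uninjured controls, to see what set treated pups apart from pups without IL-1beta. Of 13872 genes 19 passed (0.137%), 16 higher in HuMSC20 (0.115%) and 3 lower (0.0216%), and 1383 at an unadjusted p under 0.05 (9.97%). Mast cell genes made up the largest block: 6 of the 12 on the list rose. Tpsab1, a tryptase, had 33.0, 32.8 and 20.1 CPM in HuMSC20 libraries, against 1.77, 2.29 and 3.64 CPM in controls (log2 difference 3.52 ± 0.54, edgeR adjusted p = 0.0197). Slc6a4, the serotonin transporter, had 8.25, 5.29 and 5.42 CPM in HuMSC20 libraries, against 0.676, 0.412 and 1.03 CPM in controls (3.17 ± 0.51, edgeR adjusted p = 0.0219). The injured libraries held 7.52 to 19.5 CPM of Tpsab1 and 1.05 to 2.41 CPM of Slc6a4, below every HuMSC20 library. Their log2 differences of HuMSC20 minus injured, 1.16 ± 0.47 and 2.05 ± 0.46, did not pass (edgeR adjusted p = 0.563 and 0.131).

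Of the other genes called, Dhrs9, a retinol dehydrogenase, had 116, 89.8 and 96.5 CPM in HuMSC20 libraries, against 243, 202 and 169 CPM in controls (-1.03 ± 0.12, edgeR adjusted p = 0.00711). Rasgrp3, an activator of Ras and Rap, was also lower than in controls (223, 231 and 210 CPM in HuMSC20 libraries, against 376, 381 and 326 CPM in controls). The injured libraries held 173, 181 and 171 CPM of Rasgrp3, below every HuMSC20 library. Its log2 difference of HuMSC20 minus injured, 0.34 ± 0.09, did not pass (edgeR adjusted p = 0.279). Cfd, or complement factor D, had 50.8, 56.8 and 48.0 CPM in HuMSC20 libraries, against 15.8, 17.4 and 26.0 CPM in controls (1.40 ± 0.18, edgeR adjusted p = 0.00764). Sdc1, a syndecan, had 24.1, 24.1 and 32.4 CPM in HuMSC20 libraries, against 13.4, 8.11 and 10.0 CPM in controls (1.34 ± 0.19, edgeR adjusted p = 0.0158). Dhrs9 and Cfd overlapped between HuMSC20 and injured libraries, at 93.7 to 109 CPM and 52.8 to 84.4 CPM in the injured ones. For Sdc1 the injured libraries held 43.4 to 47.1 CPM, above every HuMSC20 library, with a log2 difference of HuMSC20 minus injured of -0.76 ± 0.18 that did not pass (adjusted p = 0.177). The count of 19 fell to 1 without control replicate 2, to 4 without control replicate 1, to 7 without HuMSC20 replicate 3 and to 12 without HuMSC20 replicate 1, and DESeq2 called 156.

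The 15 genes called against injured had differences against control between -0.56 and 0.41 on the log2 scale, and none passed there (lowest edgeR adjusted p 0.148). All HuMSC20 libraries lay below all controls for Enpp6 (7.66% of all genes tested), and above them for Nuak2, Id2 and Kcnk13 (7.37%). Injured minus control was -2.80 ± 0.28 for Enpp6, 1.31 ± 0.13 for Nuak2, -1.21 ± 0.17 for Adarb1 and -0.15 ± 0.09 for Kcnk13. All 3 comparisons share libraries, so these values are not independent of each other. The 15 genes were also picked for their distance from the injured libraries, which in part sets these values.

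**Figure D5:**
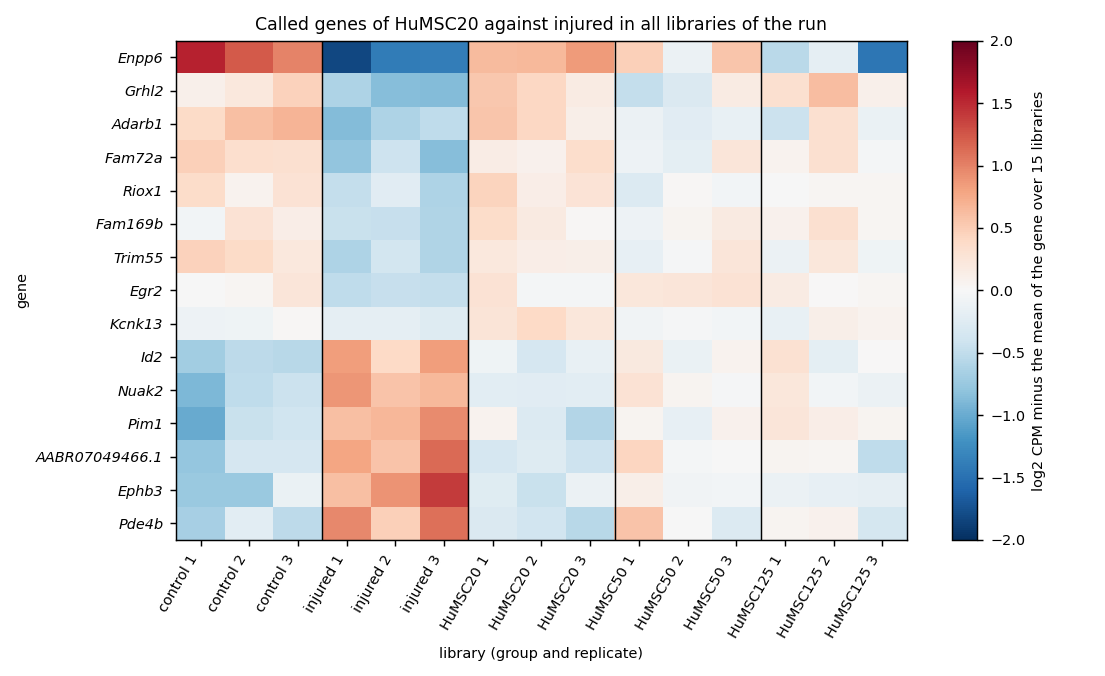
Log2 CPM minus the gene's mean over 15 libraries (colour) for the 15 called genes (rows) in the control, injured, HuMSC20, HuMSC50 and HuMSC125 libraries (columns, 3 each). The injured columns carry the strongest colours in most genes, and in Enpp6 the HuMSC125 columns are bluer than the HuMSC20 ones, at 3.00 to 7.21 against 12.7 to 14.7 CPM.

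Whether the low dose stood apart from the higher ones was tested as HuMSC20 minus the mean of HuMSC50 and HuMSC125, in which no injured library enters. With edgeR 0 of 13872 genes passed (0%), 852 had an unadjusted p under 0.05 (6.14%), and DESeq2 called 1. Without HuMSC20 replicate 1 edgeR called 3. Enpp6 stood at 12.7, 12.8 and 14.7 CPM at 20 M cells per kg, at 11.4, 7.52 and 12.0 CPM at 50 and at 5.61, 7.21 and 3.00 CPM at 125. These libraries step down with dose, with no overlap between neighbours, yet the log2 difference of the low dose from the mean of the higher ones, 0.86 ± 0.22, did not pass (edgeR adjusted p = 0.669). Kcnk13 stood at 76.0 to 86.1 CPM at 20, at 62.2 to 64.3 CPM at 50 and at 58.6 to 70.8 CPM at 125 (0.31 ± 0.07, adjusted p = 0.669). Ankrd55 stood at 14.1 to 35.1 CPM at 20, at 9.68 to 14.3 CPM at 50 and at 8.44 to 23.1 CPM at 125, with overlap between the doses. Nuak2 stood at 47.9 to 48.6 CPM at 20, at 55.4 to 68.2 CPM at 50 and at 51.7 to 65.4 CPM at 125 (-0.28 ± 0.11, adjusted p = 0.788). Egr2 was as high at 50, with 340, 343 and 354 CPM, as at 20. The genes shown here were picked for the distance of these same HuMSC20 libraries from the injured ones. That choice in part sets how far the low dose lies from the higher ones.

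The doses share the injured libraries in their own comparisons, so their values are only set side by side. The cell cycle list had a median log2 difference from injured of 0.43 at 20 M cells per kg, 0.33 at 50 and 0.30 at 125. The medians of cholesterol synthesis were 0.20, 0.05 and 0.17 in that order of dose, and those of cytokines and NF-kB targets were -0.24, -0.11 and -0.21. Summed mast cell markers were 329 to 490 CPM at 20, 101 to 330 CPM at 50 and 123 to 239 CPM at 125.

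The same dose was also given into the blood, in another sequencing run, with its own injured libraries. The difference between both effects, intranasal minus intravenous, passed in 5 of 14851 genes, all higher (0.0337%), and 2065 had an unadjusted p under 0.05 (13.9%). The genes were Knstrn, Pimreg, Gtse1, Cdc20 and Kif20a, all known for roles in mitosis. Cdc20, which activates the anaphase-promoting complex, had 61.8, 57.6 and 57.5 CPM in intranasal HuMSC20 libraries, against 34.6, 48.2 and 34.1 CPM in their injured libraries. It had 40.1, 43.7 and 42.4 CPM in intravenous HuMSC20 libraries, against 59.97, 48.7 and 60.8 CPM in theirs. The groups separated in both runs, in opposite directions, and the difference of the effects was 1.02 ± 0.19 on the log2 scale (edgeR adjusted p = 0.0395). Over the 44 cell cycle genes the median was 0.43 by the intranasal route and -0.35 by the intravenous one, and 44 had a higher effect by the intranasal route (median of the difference 0.80). Route and run cannot be told apart.

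Summed neuron markers were 4796, 609 and 965 CPM in intravenous HuMSC20 replicates 1, 2 and 3, against 138 to 190 CPM in the intravenous injured libraries. All 3 lay above the injured libraries, replicate 1 by the most. Mitochondrial genes held 11.1, 4.75 and 9.12% of the counts in intravenous HuMSC20 libraries, against 5.97, 4.23 and 5.97% in the injured ones. The part of either in the route difference was not tested. Intravenous HuMSC20 minus injured called 968 of 14851 genes (6.52%), and 0 of 14994 by edgeR without replicate 1, where 838 had an unadjusted p under 0.05. Without it 0 genes passed for the difference between the routes as well (828 unadjusted). That count was also 0 without any 1 of the 3 intranasal HuMSC20 libraries, intranasal injured replicates 1 or 3 or intravenous injured replicates 1 or 3 (1584 to 2016 unadjusted). Without intravenous HuMSC20 replicate 1 the 5 genes kept log2 differences of 0.99 to 1.21 (edgeR adjusted p = 0.245). The 44 cell cycle genes then had a median difference of 0.70, with 43 above 0. Of the 15 genes called intranasally none passed for the difference between routes with all libraries. Ephb3 came closest, at -1.27 ± 0.20 intranasally and 0.33 ± 0.22 intravenously (adjusted p of the difference 0.0533), and Adarb1 stood at 1.03 ± 0.17 and 0.73 ± 0.24 (adjusted p of the difference 0.795). Without intravenous HuMSC20 replicate 1 the intravenous values were 0.05 ± 0.22 for Ephb3 and 0.34 ± 0.23 for Adarb1. Of the 15 genes 7 had the same direction intravenously as intranasally with all libraries, and 10 without that replicate.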

How the data were processed

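RNA-seq of CD11b/c+ cells (polyA, TruSeq Stranded, 75 bp single reads, NextSeq 500, per the labels' protocols) was deposited by the authors as 1 table of raw read counts for 32623 genes and 90 libraries. The submitters' processing notes list DESeq2 1.8.1, HTSeq 0.5.3, STAR 2.7.2d and SAMtools. Build, annotation and strand setting are not given in the sources used here. Overlapping genes and close paralogs are therefore uncertain.

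Libraries were grouped by title. Genes were filtered with edgeR 4.0.16 (filterByExpr, minimum count 10, minimum total 15), scaled by TMM and tested by its quasi-likelihood F test with 1 mean per group over the 15 libraries of the intranasal P7 run, which held 15.1 to 26.2 M counts. The route difference used the 30 libraries of both P7 runs. P-values were adjusted by Benjamini-Hochberg over all genes tested, with a threshold of 0.05. SE was the log2 difference over the square root of F. R was 4.3.3 and limma 3.58.1. DESeq2 1.42.0, RLE scaling, no filter, a replicate block, only the groups compared, and leaving out each library were the alternatives. The fit was tested on simulated counts. No libraries were duplicates: 0 pairs held identical values.

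The groups and the 39 gene lists (704 of 723 genes matched, 10 of them by the table's RGD symbol where its gene name differs) were chosen with earlier results of these data known. Genes were named by rule: the called genes and the next by p up to 24, up to 4 members of each list by p, a panel of markers, and up to 6 called genes in each other comparison; others are named where a count, a list or a contrast within a list turned on them, after their values were seen. Of the panel, Tnf and Arg1 did not pass the filter. Promoters came from RefSeq, build GRCr8.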

Additional observations from a re-analysis of the deposited data

Results flagged for a closer look

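In 5 genes the effect of the low dose differed between the intranasal and the intravenous route by the interaction test of edgeR (n = 3 libraries in each group, adjusted p = 0.0395 in each). The log2 differences of the effects were 1.31 ± 0.23 for Knstrn, a spindle protein, 1.30 ± 0.24 for Pimreg, 1.14 ± 0.21 for Gtse1, 1.02 ± 0.19 for Cdc20 and 1.13 ± 0.21 for Kif20a, a kinesin of cytokinesis. Knstrn had 28.6, 23.4 and 28.3 CPM in intranasal HuMSC20 libraries, against 14.2, 18.5 and 15.5 CPM in their injured libraries, and 15.1, 18.2 and 19.6 CPM in intravenous HuMSC20 libraries, against 28.1, 21.3 and 29.4 CPM in theirs. The injured levels themselves differed between the runs, and in the intranasal run controls held 37.4, 38.1 and 39.5 CPM. Without intravenous HuMSC20 replicate 1, an alternative chosen after seeing the data, the 5 genes had an adjusted p of 0.245.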

How the results depend on the processing

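For HuMSC20 minus injured, 15 genes were called. RLE scaling gave 15, DESeq2 91, no filter on low counts 32 and the fit of only the groups compared 41. Leaving out 1 library gave 0 to 14, and no called gene passed in every such fit. For HuMSC20 minus control, 19 were called: DESeq2 gave 156, no filter 55, only the groups compared 9, and leaving out 1 library 1 to 16. For HuMSC20 minus the higher doses, 0 were called: DESeq2 gave 1, and leaving out 1 library 0 to 3. For the difference between routes, 5 were called: DESeq2 gave 333, no filter 19, only the groups compared 0, and leaving out 1 library 0 to 487, the highest without intravenous HuMSC20 replicate 2, with 35 without its replicate 3, 28 without intranasal and 11 without intravenous injured replicate 2, and 0 without any other library. The cause was not tested.

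Replicate numbers did not pair the libraries: deviations of same-numbered HuMSC20 and injured libraries correlated at -0.06, -0.09 and -0.06, and 0 of 3 matched their own number best. With the replicate block 4 genes were called for HuMSC20 minus injured, 18 for HuMSC20 minus control, 0 for the higher doses and 0 for the routes. Among named genes 6 values changed sign, none of them called. Cx3cr1 ran from -0.14 to 0.11 (log2) over the fits without 1 library, with 0.05 and 0.0061 without injured replicates 1 and 3. Csf1r ran from -0.15 to 0.0010, Il1rn from -0.21 to 0.088, and P2ry12 from -0.00034 to 0.15. No called gene changed direction. At these depths the median SE of a log2 difference was 0.16, which limits what 3 libraries a group can show.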
